A study of Homo sapiens with 4 samples.

Results

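The replication-dependent histone gene cluster on the short arm of chromosome 6 was examined for H3K4me3, trimethylation of lysine 4 of histone H3, a mark found mainly at active promoters. Its members were chosen by position alone, as the peaks on hg19 chromosome 6 that overlapped 26015000 to 26290000 (the first block) or 27090000 to 27870000 (the second block) by at least 1 bp. This gave 82 of the 60265 peaks in both lists, with 50 of 36677 control peaks (14 in the first block and 36 in the second) and 32 of 23588 knockout peaks (7 and 25). The 800 kb between the blocks, with 28 control and 17 knockout peaks, served as the local comparison. The study compared cells of the established breast cancer line MDA-MB-231, of the triple-negative type, labelled as control with cells of that line labelled as knockout for ARID1A, a DNA-binding subunit of SWI/SNF chromatin remodelling complexes. Each genotype had 1 anti-H3K4me3 immunoprecipitate (IP) and 1 input library, the latter with IgG in its antibody field. No treatment, time or clone name is given in the labels, and the sources used here do not say whether the knockout is 1 clone or a pool. The cell line fields of 3 of the 4 libraries end in other numbers than MDA-MB-231, the name in the series title.

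Replication-dependent histone genes encode the H1 linker histones and the core histones H2A, H2B, H3 and H4 that package new DNA. They are short genes without introns, transcribed mainly during S phase under the coactivator NPAT in nuclear bodies that form on the clusters. Their messenger RNAs end in a stem-loop in place of a poly(A) tail. The cluster on chromosome 6 is the largest in the human genome, and genes of other kinds lie among the histone genes.

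The RefSeq gene table, which uses the GRCh38.p14 assembly, listed 55 coding histone genes of these classes on chromosome 6, namely 6 for H1, 12 for H2A, 15 for H2B, 10 for H3 and 12 for H4. In gene order, H1-1 to H4C8 formed a run of 43 genes of which 32 were coding histone genes, with the iron regulator HFE as the only other coding gene. A run of 31 genes from BTN3A2 to ZNF322, beyond H4C8, held no coding histone gene. It held 13 transfer RNA genes and 9 coding genes, among them butyrophilins, which act in the control of T cells, and the nucleosome-binding protein gene HMGN4. Histone genes resumed with the 5 genes from H2BC11 to H2AC12. Another run without coding histone genes followed, in which PRSS16 to ZNF184 held 8 transfer RNA genes and 5 coding genes. The last run, from H2BC13 to H2BC17, held 16 coding histone genes among 18. The peak files are in hg19, so single peaks were not assigned to genes, and the label of the cluster was checked only through this order.

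Promoter windows were found for 50 of the 55 genes, 54 windows in all, and the 250 bases before each start were searched on both strands. The 55 are those of all chromosome 6, and the runs named above do not hold all of them. The motif counts were therefore not limited to the genes of those runs. The TATA box (TATAAA) was found in 36 of 54 windows (66.7%), against 10.7% of the 35097 promoters of the table. The CCAAT box (CCAAT) was found in 47 windows (87.0%), against 32.0%. The octamer (ATTTGCAT), known as an H2B promoter element bound by OCT1, was found in 23 windows (42.6%), against 1.63%. It was present in 13 of 17 H2B windows, 9 of 11 H2A windows and 1 of 10 H3 windows, and in none of the 6 H1 and 10 H4 windows. The H2A and H2B counts share sequence, because 9 H2A genes and 9 H2B genes start within 500 bases of each other on opposite strands. The CCAAT box was present in every H1, H2A, H2B and H3 window and in 3 of 10 H4 windows. The TATA box was present in 3 of 6 H1, 8 of 11 H2A, 13 of 17 H2B, 6 of 10 H3 and 6 of 10 H4 windows. A set of 3 stretches is shown, from RefSeq in GRCh38.p14, as single examples side by side, with the letters of the motifs in capitals on either strand. The first is the 245 bases between the starts of H2BC4 and H2AC6 (chr6:26123927-26124171, plus strand), a divergent pair with 1 octamer, 3 CCAAT boxes and 1 TATA box. The second is the H1 gene H1-4 (chr6:26156079-26156328, plus strand) and the last is the H4 gene H4C8 (chr6:26285535-26285784, minus strand). These positions are not on the hg19 scale of the peaks.
H2BC4 to H2AC6: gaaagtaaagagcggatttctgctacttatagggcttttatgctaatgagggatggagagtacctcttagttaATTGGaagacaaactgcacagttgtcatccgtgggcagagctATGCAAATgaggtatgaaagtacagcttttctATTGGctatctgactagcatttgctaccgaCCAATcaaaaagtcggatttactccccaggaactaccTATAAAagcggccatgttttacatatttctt
H1-4: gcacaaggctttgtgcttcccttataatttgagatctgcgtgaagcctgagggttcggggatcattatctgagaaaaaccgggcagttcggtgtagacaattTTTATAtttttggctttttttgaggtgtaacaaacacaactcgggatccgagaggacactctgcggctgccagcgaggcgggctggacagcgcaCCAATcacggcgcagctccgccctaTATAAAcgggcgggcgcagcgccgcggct
H4C8: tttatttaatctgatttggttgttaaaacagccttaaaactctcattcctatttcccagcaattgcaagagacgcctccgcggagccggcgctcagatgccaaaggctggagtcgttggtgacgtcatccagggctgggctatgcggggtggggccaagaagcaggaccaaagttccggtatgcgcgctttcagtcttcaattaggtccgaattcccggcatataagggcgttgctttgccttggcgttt
The H1-4 stretch held 2 TATA boxes and 1 CCAAT box. The H4C8 stretch held none of these letters, unlike the 6 of 10 H4 windows with a TATA box. Their absence says nothing of the factors that bind there.

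The control IP held 27748061 tags (aligned reads) and the knockout IP 13391724, and the peak caller MACS compared each with its own input. With 1 IP library per genotype no test of the genotype was possible, no p-value is given, and all intervals are exact 95% intervals that cover counting error only. A fragment read more than once counts more than once in them, which would make them too narrow. Knockout members held a median of 954 tags per kb of peak width and control members 113, against 1094 and 56.5 over the whole lists. The share of repeated reads among these tags was not tested. Intervals of shares and of peak densities take the peaks of 1 library as independent, which neighbouring peaks may not be. Over the whole lists the control peaks were broad, with a median width of 2968 bp, and the knockout peaks narrow, with a median of 300 bp, the fragment length set for MACS. Any difference in the cluster is set against these whole-list values. Marker genes of the cell line were not examined.

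Peaks were dense in the cluster in both genotypes, the median control domain carried more tags than the median of its list, and the median knockout peak fewer. The control list had 47.4 peaks per Mb in the cluster (35.2 to 62.5) against 13.6 over the effective genome, 3.49 times as many. The knockout list had 30.3 peaks per Mb (20.7 to 42.8) against 8.74, 3.47 times as many. Control peaks covered 18% of the cluster (5.16% of the effective genome) and knockout peaks 1.21% (0.383%). Tags per control member had a median of 393 (quartiles 152.75 and 674, range 27 to 1683), against 168 for the whole control list. Of the 50, 37 lay above that list median (74%, 59.7 to 85.4%). Tags per knockout member had a median of 290 (quartiles 186.5 and 520.5, range 40 to 2001), against 419 for the whole knockout list. Of the 32, 10 lay above their list median (31.2%, 16.1 to 50.0%). The interval of the control share lay above 50%, and the upper bound of the knockout share reached 50.0%. Both intervals take the peaks of 1 library as independent and are not a test of the cluster.

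Control members were a median of 3290.5 bp wide (range 799 to 10376 bp), and 19 of 50 were 4 kb or wider (38%, 24.7 to 52.8%), against 35.1% of the whole list. Knockout members were between 300 and 1284 bp wide. Exactly 300 bp was the width of 19 of 32 (59.4%, 40.6 to 76.3%), against 55.0% of the whole list. For both widths the whole-list share lay inside the interval of the members. No knockout member had a false discovery rate above 1% (0 of 32, 0 to 10.9%), against 4.35% of the whole knockout list, which lies within that interval. Of the control members 12 of 50 did (24%, 13.1 to 38.2%), against 45.4% of the whole control list.

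**Figure D1:**
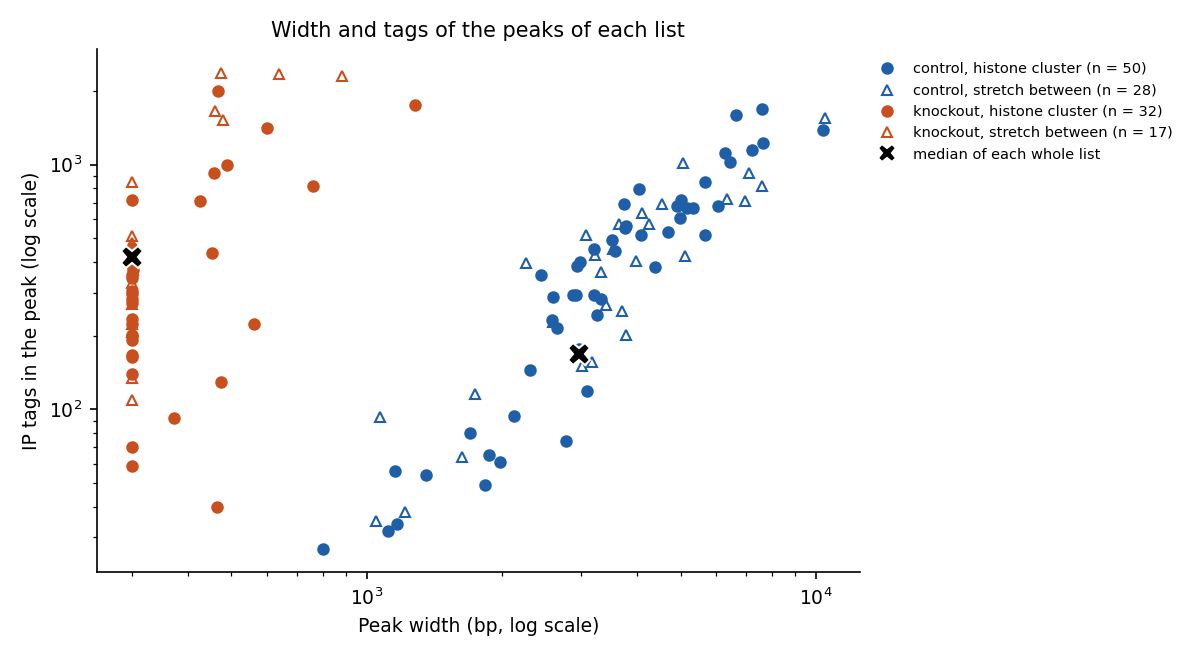
Peak width in bp against IP tags per peak, both on log scales, for the cluster members (filled circles) and the peaks of the stretch between the blocks (open triangles) in the control (blue) and knockout (orange) lists, with black crosses at the medians of the whole lists. Control members lie along a band from 799 bp and 27 tags up to the widest at 10376 bp, and knockout members stack at 300 bp and reach no more than 1284 bp.

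In the first block the control list held 14 domains, at the median 5090 bp wide with 634 tags, and 9 of the 14 were 4 kb or wider (64.3%, 35.1 to 87.2%). The strongest ran from 26122404 to 26129047 with 1604 tags (1526 to 1684) over 6644 bp. It was followed by the widest member of either list, 10376 bp from 26025137 to 26035512 with 1386 tags, and by a domain from 26154603 to 26162242 with 1226 tags. Next came 847 tags from 26282242 to 26287902, and then 4 domains within a narrow range: 677 tags from 26041842, 665 from 26053103, 663 from 26019183 and 605 from 26169897. A domain from 26085589 to 26090278 held 533 tags. The remaining 5 were weak, with 244, 232, 74, 49 and 34 tags, and the last 3 of these had a false discovery rate above 1%.

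The knockout list held 7 peaks in the first block, all inside control domains. The strongest knockout member of the cluster lay here, from 26055993 to 26056459, with 2001 tags (1914 to 2091) in 467 bp, and alone held 48.7% of the knockout tags of the block. Its neighbour from 26054514 to 26054971 held 927 tags, and both fell within the control domain from 26053103 to 26058283. The other 5 peaks were weaker, with 437 tags from 26031989, 306 from 26161182, 164 from 26123517, 140 from 26125455 and 130 from 26159490. The strongest of the 14 control domains held 18.1% of the control tags of the block, a share that also depends on the number of peaks in each list.

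In the second block the control list held 36 peaks, at the median 3148 bp wide with 369 tags, and 12 of the 36 held 500 tags or more, against 9 of 14 in the first block. The strongest control member of the cluster was the domain from 27857054 to 27864659, with 1683 tags (1604 to 1765) over 7606 bp. Another 3 exceeded 1000 tags, namely 1152 from 27436161 to 27443389, 1120 from 27110417 to 27116693 and 1023 from 27096574 to 27103012. Of these 4 domains, 2 lay near the lower end of the block, 1 in its middle and 1 at its upper end. Close behind were 797 tags from 27143797, 717 from 27803517, 688 from 27758556 and 678 from 27443730. Peaks under 100 tags numbered 8 of 36 in this block, the weakest being 27 tags over 799 bp from 27417898.

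The knockout list held 25 peaks in the second block, with a median of 283 tags. The widest knockout member, 1284 bp from 27113512 to 27114795, was also the strongest of the block, with 1754 tags (1673 to 1838). It was followed by 1418 tags from 27806517 to 27807117. The neighbouring peak from 27805433 to 27806191 held 821 tags, and these neighbours, 601 and 759 bp wide, were the next widest knockout members. A peak from 27099996 to 27100483 held 1000 tags, one from 27362242 held 717 and one from 27862547 held 714. A further peak, from 27739610, held 456 tags. Most of the 25 were far weaker, and 4 held under 100 tags, with 92, 70, 59 and 40. The 5 strongest held 52.4% of the knockout tags of the block, against 37.3% for the 5 strongest of the 36 control peaks, shares that again depend on the number of peaks.

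**Figure D2:**
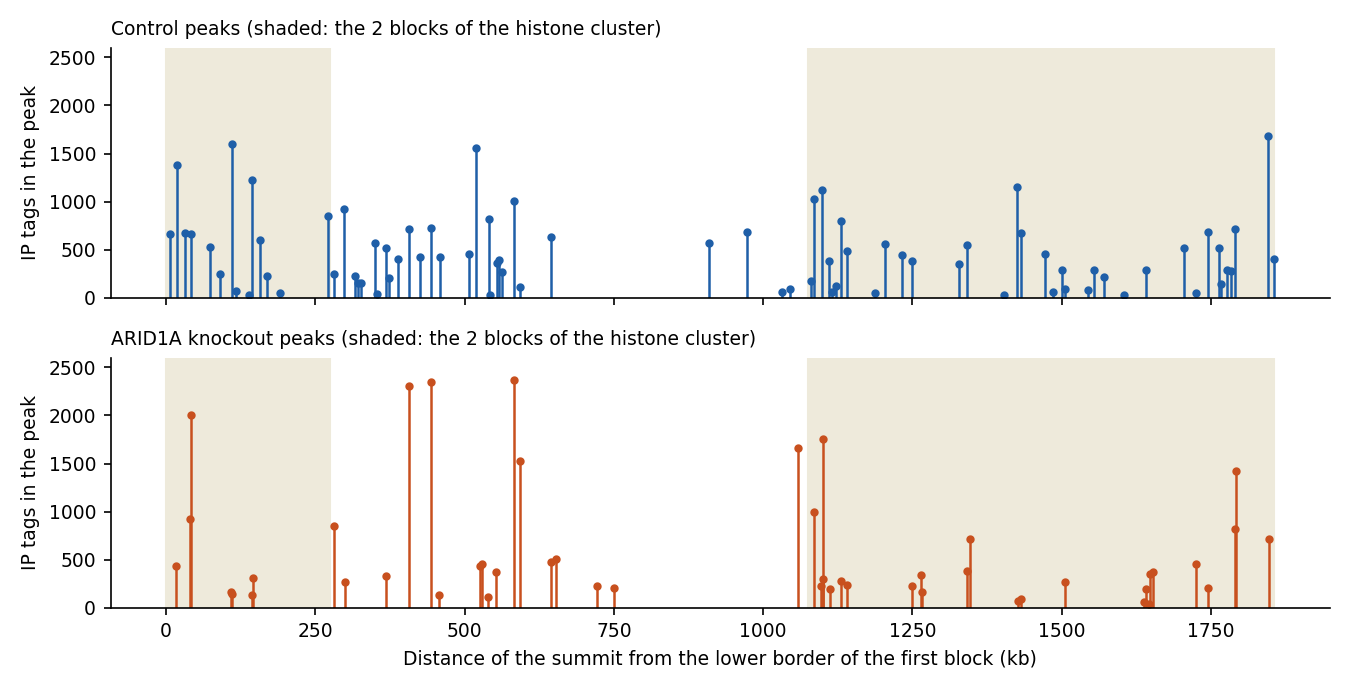
IP tags per peak against the distance of the peak summit from the lower border of the first block in kb, for the control list (top) and the knockout list (bottom), with the 2 blocks of the histone cluster shaded and the stretch between them unshaded. Each stem is 1 peak; the highest stems are 1683 tags for the control members and 2001 tags for the knockout members, and both lists hold long intervals without a peak.

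Intervals without any peak were found within the cluster. The longest of the first block ran from 26207829 to 26282241, 74.4 kb, in which neither list held a peak. In gene order, neighbouring coding histone genes from H1-1 to H4C8 are never more than 47.5 kb apart (H1-2 and H4C3) in the RefSeq table. The interval was longer than any such distance, but the assemblies differ and the genes in it were not placed. In the second block the longest interval free of control peaks was 75.7 kb, from 27266042 to 27341701, and held 2 knockout peaks. One of 48.5 kb, from 27808532 to 27857053, lay between strong control domains and held no peak of either list. The files hold called peaks only, so the signal in these intervals was not analysed here, and an interval without a listed peak is not shown to lack the mark or the DNA. Knockout peaks left wider intervals. In the first block 129 kb, from 26161482 to the upper border, held no knockout peak and all or part of 5 control peaks. In the second block, 132 kb from 27520635 to 27652733 held no knockout peak and all or part of 5 control peaks. Over the whole lists the median distance between neighbouring peaks was 25856 bp for control and 41882 bp for knockout.

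Most control domains of the cluster with 500 tags or more held a knockout peak, and few of the weaker ones did. In each class of strength the whole-list share lay inside the interval of the members. Of the 50 control members, 18 shared at least 1 bp with a knockout peak (36%, 22.9 to 50.8%), against a background of 28.4% of all control peaks, a value within that interval. The share was 4 of 14 in the first block (28.6%, 8.39 to 58.1%) and 14 of 36 in the second (38.9%, 23.1 to 56.5%). All 7 control members with 1000 tags or more held one (59.0 to 100%), against 79.8% of the 5914 such peaks of the whole list. With 500 tags or more the share was 13 of 21 (61.9%, 38.4 to 81.9%), against 69.1% of the whole list. From 100 up to but not including 500 tags it was 3 of 18 (16.7%, 3.58 to 41.4%), against 16.9%. Under 100 tags it was 2 of 11 (18.2%, 2.28 to 51.8%), against 4.59%.

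**Figure D3:**
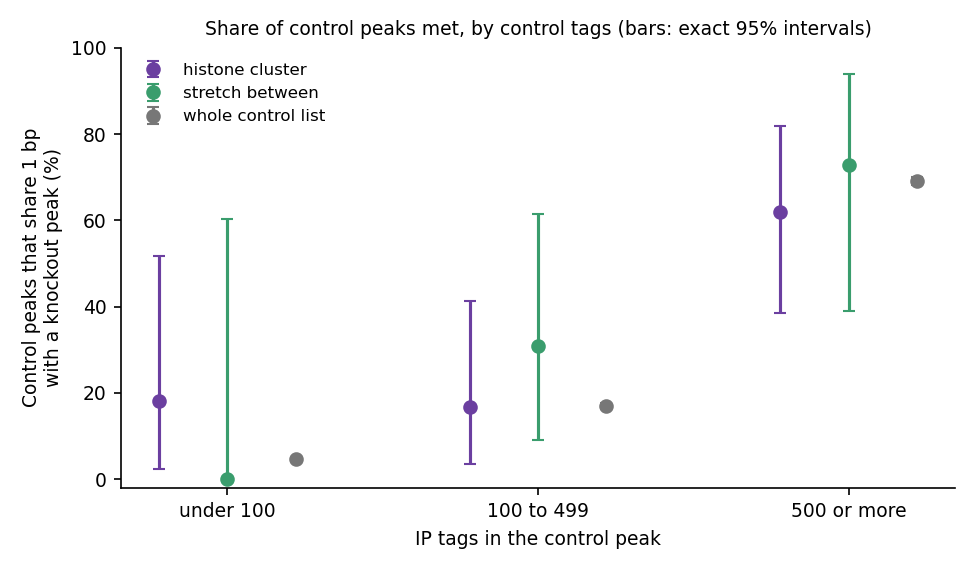
Percent of control peaks that share at least 1 bp with a knockout peak, in 3 classes of control tags, for the histone cluster, the stretch between its blocks and the whole control list, with bars for exact 95% intervals. The cluster stands at 18.2, 16.7 and 61.9% and the whole list at 4.59, 16.9 and 69.1%, and the bars of the cluster span the whole-list points.

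Of the 32 control members without a knockout peak, the strongest was the domain from 26282242 to 26287902 with 847 tags (791 to 906), whose nearest knockout peak lay 7571 bp away. It was followed by 677 tags from 26041842, 663 from 26019183, 605 from 26169897 and 560 from 27217108. The first 4 of these 5 lay in the first block, and their nearest knockout peaks were 6598 to 8415 bp away, while that of the last was 43089 bp away. The 32 held a median of 288.5 tags, against 702.5 for the 18 that held a knockout peak. In the other direction 24 of the 32 knockout members met a control peak (75%, 56.6 to 88.5%), against a background of 60.3% of all knockout peaks. All 7 of the first block did so (59.0 to 100%), and 17 of 25 of the second block (68%, 46.5 to 85.0%).

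The 8 knockout members that met no control peak all lay in the second block and held 40 to 717 tags, and 6 of them were exactly 300 bp wide. The strongest, with 717 tags (665 to 771) in the 300 bp from 27362242 to 27362541, lay 3799 bp from the nearest control peak. It was followed by 370 tags from 27668152, 353 from 27662295, 345 from 27279825 and 200 from 27126926. The peak with 200 tags missed the control domain from 27123972 to 27126918 by 7 bp. Of the 8 peaks, 4 lay close together between 27652734 and 27668453, where the nearest control domain, from 27654441 to 27657036, held 288 tags and a knockout peak of its own. The largest distance to a control peak was 14414 bp.

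A total of 5 of 50 control members held 2 or more knockout peaks (10%, 3.33 to 21.8%), against a background of 7.8% of all control peaks. The domain from 27110417 to 27116693 held 3, with 224, 1754 and 297 tags, which sum to 2275 against 1120 control tags. That from 26053103 held 2 with 2928 tags together against 665 control tags, and that from 27803517 held 2 with 2239 against 717. In these 3 domains the raw knockout tags, summed over the knockout peaks, exceeded the control tags. The same held for 41.3% of all control peaks with a knockout peak. The remaining pair of domains went the other way, with 304 knockout against 1604 control tags from 26122404 and 436 against 1226 from 26154603. Each of these 2 domains ranked among the 4 strongest control members.

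The sum of tags over the cluster depended on the scale. Raw tags summed to 24336 in the control members and 15000 in the knockout members. As a share of all IP tags of the library they came to 0.0877% for control and 0.112% for knockout. Over the whole lists, peaks held 62.1% of the control IP tags and 99.4% of the knockout IP tags. They covered 5.16% of the effective genome for control and 0.383% for knockout. Why so few knockout tags lay outside peaks was not tested, nor whether the tag counts of the lists are comparable. As a share of the tags in all peaks of its list, the cluster held 0.141% for control and 0.113% for knockout, so the order of the genotypes turned with the library total and not with the total over peaks. Within the 18 domains that held a knockout peak, the raw knockout tags were a median of 0.53 times the control tags, against 0.79 over all 10427 such control peaks. They exceeded the control tags in 5 domains (27.8%, 9.69 to 53.5%), against a background of 41.3%, which lies within that interval, and fell short in 13.

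**Figure D4:**
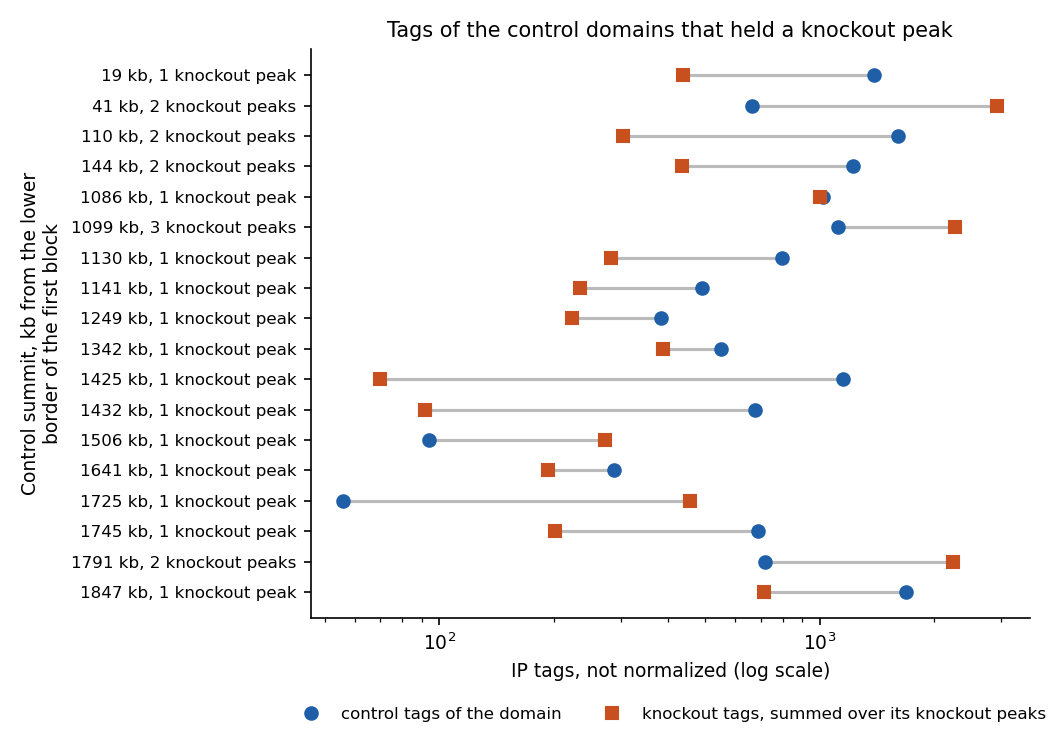
Raw IP tags, on a log scale, of the 18 control domains of the cluster that held a knockout peak (blue circles) and of the knockout peaks within each, summed (orange squares), ordered by position as kb from the lower border of the first block. The knockout square lies to the right of the control circle in 5 domains and to the left in 13, with the widest gap to the left at 1152 against 70 tags.

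Where 1 control and 1 knockout peak overlapped each other and no other peak, the log2 ratio of their tags (knockout to control, 1 added to each) was taken relative to the median of all 7552 such pairs of the genome. The cluster held 13 of these pairs. Their median was -0.61, with quartiles of -1.21 and -0.05, and 10 of 13 lay below 0 (76.9%, 46.2 to 95%). A centred ratio of -1 or less was found for 5 of 13 pairs (38.5%, 13.9 to 68.4%), against a background of 28.9%. A ratio of 1 or more was found for 2 of 13 (15.4%, 1.92 to 45.4%), against 28.7%. Both backgrounds lie within these intervals, so the counts show no difference from the other pairs beyond counting error.

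The lowest ratio, -3.57 (-3.95 to -3.24), paired 1152 control tags from 27436161 with a knockout peak of 70 tags. The neighbouring control domain from 27443730, the next in order, had the next lowest, -2.41 (-2.76 to -2.11), with 678 against 92 tags. These neighbours were the only pairs of the cluster below -2. They were followed by -1.31 (688 against 202 tags, from 27758556), -1.21 (1386 against 437, from 26025137) and -1.03 (797 against 283, from 27143797). The strongest control member, from 27857054, stood at -0.78 with 1683 against 714 tags. A group of 3 pairs lay near the genome's median ratio, at -0.31, -0.12 and -0.05, from 27261647, 27654441 and 27354686, and a pair from 27154226 at -0.61.

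The highest ratio, 3.46 (3.08 to 3.91), paired a control peak of 56 tags from 27739641 with a knockout peak of 456 tags, of which 89.7% of the width lay inside the control peak. The second, 1.98 (1.65 to 2.35), paired 94 control tags from 27520066 with 273 knockout tags. Both control peaks were weak, with under 100 tags and a false discovery rate above 1%. The only other ratio above 0 was 0.42 (0.30 to 0.55), at the strong domain from 27096574, with 1023 control and 1000 knockout tags.

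Knockout summits did not sit exactly on the control summits. Over the 24 overlaps of the cluster the distance between summits had a median of 715.5 bp (quartiles 222 and 1152.5, range 89 to 2641 bp). It was at most 500 bp in 11 of 24 (45.8%, 25.6 to 67.2%), against 46.0% over all overlaps of the lists, whose median was 568 bp. Control summits lay at a median of 53.3% of the way from the start to the end of their domain, against 51.0% over the whole list.

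The stretch between the blocks also had more peaks per Mb than the effective genome, 2.58 times as many for control and 2.43 times for knockout. The control list had 35.0 peaks per Mb there (23.3 to 50.6), against 47.4 in the cluster, and the knockout list 21.2 (12.4 to 34.0), against 30.3. The intervals of cluster and stretch overlapped in both lists. In the stretch 261 kb, from 26661537 to 26922499, held no control peak. A further gap of 309 kb, from 26765481 to 27074064, held no knockout peak. These long gaps lower the densities of the stretch, and no comparison without them was made. Control tags per kb of sequence were 1.44 times as high in the cluster as in the stretch (23.1 against 16.0), with 2.01 times in the first block (32.1) and 1.24 times in the second (19.9). Knockout tags per kb went the other way, at 0.78 times the stretch (14.2 against 18.2). Control peaks of the stretch had a median of 413.5 tags, against 393 in the cluster, and 21 of 28 lay above the median of the whole list (75%, 55.1 to 89.3%), against 74% of the cluster members. Knockout peaks of the stretch had a median of 457 tags against 290, and 5 of its 17 held 1000 tags or more against 4 of 32 in the cluster. The 3 strongest were 2370 tags from 26597326, 2346 from 26458419 and 2308 from 26421660, each above any knockout member of the cluster. For control the 3 strongest were 1556 tags from 26531748, 1012 from 26594601 and 928 from 26308816. Of the 28 control peaks, 12 shared at least 1 bp with a knockout peak (42.9%, 24.5 to 62.8%), against 36% in the cluster. Of the 17 knockout peaks, 12 met a control peak (70.6%, 44.0 to 89.7%), against 75%. In those control domains the raw knockout tags were a median of 0.89 times the control tags, against 0.53. The median distance between summits was 397.5 bp, against 715.5 bp. The 12 pairs of the stretch had a median ratio of 0.27 and ranged from -2.45 to 4.16, with 5 at 1 or more (41.7%, 15.2 to 72.3%) and 4 at -1 or less (33.3%, 9.92 to 65.1%). The shares of all pairs, 28.7 and 28.9%, lie within these intervals. These are values of 1 library each, and the difference between cluster and stretch was not tested.

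The borders of the blocks fell between peaks except at the upper end of the second, where the control domain from 27869508 to 27872499 (401 tags) spanned the limit. Just inside the lower border of the first block lay a control domain of 663 tags and a knockout peak of 437 tags. Just outside it were a control domain of 548 tags and a knockout peak of 135 tags. At the upper border of the first block the nearest knockout peak inside lay 128519 bp away, and the nearest outside 5474 bp. The values there were 847 and 306 tags inside and 253 and 851 outside. At the lower border of the second block they were 176 and 1000 tags inside and 93 and 1659 outside. At its upper border they were 401 and 714 tags inside, and 787 and 256 outside, where the next control peak was 176438 bp away and the next knockout peak 177713 bp. The knockout peak of 1659 tags, 15476 bp below the second block, was weaker than only 2 knockout members of the cluster.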

How the data were processed

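H3K4me3 was profiled in 1 IP and 1 input library per genotype, grouped by title. Bowtie2 2.2.4, MACS 1.4.3 and the build hg19 come from the submitters' processing notes. Per the file headers, MACS ran on each IP against its own input with a p cutoff of 0.0001, tags of 150 bp and fragments of 300 bp, and the larger library of each pair was scaled down to the smaller (the control IP, but the knockout input), so folds of the lists share no scale. The knockout header reads K6 where the file name reads KO, and the file name was followed. The deposited tag counts are raw counts of IP tags per peak. The column of the deposited score (a negative log10 scale of the MACS p) lost its name and was identified by its place. The deposited fold enrichment, a ratio to the local background, and the deposited false discovery rate in percent are the authors' values and served only to describe or filter peaks within a list. Each list comes from 1 IP library, without pooling.

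Peaks were assigned to the blocks by 1 bp of overlap. Computation used scipy 1.17.1, pandas 2.3.3 and numpy 2.4.6 under Python 3.11.15, with plots from matplotlib 3.10.9, and overlaps were checked with bedtools 2.31.1. Shares have exact Clopper-Pearson intervals, tag counts and peak densities exact Poisson intervals, and ratios intervals from the exact binomial interval of the knockout share of a pair's tags. The effective genome of 2.7e+09 bp from the headers was the length for whole-list densities. The ratio step was tested on simulated data with counting error and set changes only. That checks the computation and not the spread of real pairs, whose log2 ratios had a standard deviation of 1.96 over the genome. Neither sequence nor annotation in hg19 was used, so RefSeq supplied gene order and promoters in GRCh38.p14 only. The peaks named are the 10 with the most tags in each list, the 3 widest, the 5 strongest without overlap, 3 with several partners, the 5 highest and 5 lowest pairs, the 3 strongest of the stretch and those at the borders. The other members given were added after their values were seen. The members, lists and alternatives were chosen with earlier results of these data known.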

Additional observations from a re-analysis of the deposited data

How the results depend on the processing

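Alternatives were stricter thresholds, merging of close peaks, membership by summit, wider borders, other overlap criteria and other scalings. Of 61 recomputed summary values, 58 stayed within 1.5 times the reported value, or within its counting interval for shares. Some of these could not move. Every knockout member passed the stricter thresholds, so the number, widths and tags of knockout members were unchanged under them. Tags and tags per kb of the blocks were counted apart although the length was fixed. The log2 ratio of summed knockout to control tags, -0.70 for raw tags, was 0.35 after division by the library totals and -0.33 after division by the summed tags of each list, a scale chosen after seeing the data. With pair tags scaled to the library totals and no centring, the median over the pairs moved from -0.61 to -0.012. With only knockout peaks wider than 300 bp, 18% of control members held a knockout peak in place of 36%, by construction over fewer knockout peaks. Of 39 recomputed pair ratios, 16 kept their sign and stayed within their counting interval. A further 19 kept their sign but left the interval, and 4 changed sign, whether inside the interval or not. After division by the library totals these were 0.28 from 27261647, 0.55 from 27354686 and 0.48 from 27654441, and per kb of peak width 0.078 from 27354686. The library scale shifts every pair by the same amount by construction, and the cause of the other changes was not tested. The number of members limits the precision of the shares. No paired analysis was possible because each genotype has 1 IP library.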
